A study of Mus musculus with 27 samples.

Results

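The 10 genes described here encode enzymes that cut or crosslink the extracellular matrix and inhibitors of the cutting enzymes. They are 5 matrix metalloproteinases (Mmp2, Mmp12, Mmp13, Mmp14 and Mmp19), 3 tissue inhibitors of metalloproteinases (Timp1, Timp2 and Timp3) and 2 lysyl oxidases (Lox and Loxl1). They were taken from a given list by symbol, 10 of the 51826 genes in the tables, and all 10 passed the filter on low counts that left 16428 genes for testing. Whole livers of wild-type BALB/c mice, an inbred strain, were profiled by bulk RNA sequencing at 7 stages of a reproductive cycle, with 1 library per animal and 27 libraries. The groups were nulliparous mice that were not pregnant (NUL, n = 4), lactation day 10 (LAC, n = 3), days 2, 4, 6 and 8 after weaning (ID2, n = 3; ID4, n = 4; ID6, n = 6; ID8, n = 3) and 4 weeks after weaning (REG, n = 4). Breeding took place at 10 to 12 weeks of age, pups were removed after 10 to 14 days of lactation, and animals of the 7 groups were matched for age. All groups share the strain, and none carried an engineered allele or received a drug. The limit of the material is that a whole pulverised liver mixes hepatocytes with the scarcer cells that make most matrix enzymes.

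Matrix metalloproteinases are zinc enzymes that are made as inactive precursors and, once activated, cut collagens, elastin, proteoglycans and other extracellular proteins. TIMPs are small secreted proteins that bind the active site and block it, and lysyl oxidases are copper enzymes that oxidise lysines in collagen and elastin so that the fibres become crosslinked. In liver, stellate cells and portal fibroblasts are the main known makers of MMP2, TIMP1, TIMP2 and the lysyl oxidases, while macrophages are the known source of MMP12, the macrophage elastase, and one source of MMP13, a collagenase that opens fibrillar collagen in rodents. Because fewer cells of a type and less RNA per cell cannot be told apart in bulk RNA, every level below is a level in the whole organ.

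Mmp13 and Mmp12 lie side by side on mouse chromosome 9, at chr9:7272514-7283331 and chr9:7344381-7369499 (GRCm38, plus strand, GENCODE M21), and 61.1 kb separates the end of the first from the start of the second. The 10 metalloproteinase genes annotated in that cluster also include Mmp1b, Mmp3, Mmp1a, Mmp10, Mmp8, Mmp27, Mmp20 and Mmp7, and 6 of the 10 had enough counts to be tested. Mmp1b, Mmp1a, Mmp10 and Mmp20 had 0 counts in all libraries. The sequence before the start of Mmp13 and of Mmp12 is shown because these 2 neighbours had the highest day 4 values of all members relative to NUL. RefSeq's promoter table (GRCm38.p6) held windows of 300 bases, from 250 before to 50 after a transcript start, for 6 of the 10 members: 2 for Mmp12 and 1 each for Mmp13, Mmp14, Timp1, Timp2 and Timp3. Each was searched for the AP-1 motif TGANTCA, which is its own reverse complement, so that a single scan covers both strands and a match is counted once. AP-1 is the pair of Fos and Jun proteins through which inflammatory signals are known to drive several metalloproteinase genes. A match was found in 2 of these 7 windows, in Mmp13 and in the second, downstream start of Mmp12, against 2565 of all 32851 windows in the table (7.81%). The 120 bases that end just before each of these starts, 5′ to 3′ on the plus strand and with the match in capitals, lie at chr9:7272394-7272513 and chr9:7347254-7347373.
Mmp13: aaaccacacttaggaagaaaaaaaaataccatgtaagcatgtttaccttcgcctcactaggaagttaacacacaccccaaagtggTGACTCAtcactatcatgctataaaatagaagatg
Mmp12: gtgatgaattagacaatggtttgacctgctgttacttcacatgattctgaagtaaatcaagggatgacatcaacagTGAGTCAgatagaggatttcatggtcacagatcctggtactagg
The match spans positions -35 to -29 before the Mmp13 start and -44 to -38 before the downstream Mmp12 start, counted back from the first transcribed base. These are matches of letters, and binding was not measured. Windows for Mmp2, Mmp19, Lox and Loxl1 were not used here.

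The remaining members are spread over the genome. Mmp2 lies at chr8:92827291-92853420, Mmp14 at chr14:54431612-54445364, Mmp19 at chr10:128790910-128800824, Timp3 at chr10:86300372-86349506 and Timp1 at chrX:20870166-20874735, all on the plus strand. On the minus strand lie Timp2 at chr11:118301069-118355740, Loxl1 at chr9:58287738-58313186 and, on chromosome 18, Lox. Timp1 and Timp3 sit in genes of the opposite strand, Syn1 and Syn3. Those had 0.0516 to 0.661 and 0.174 to 0.997 CPM (read counts relative to a library size adjusted by TMM, edgeR's scaling between libraries). The use of strand in counting is not given in the sources used here. Timp1, itself at 0 to 0.337 CPM, had whole counts in all 27 libraries, so no reads were shared out between it and other genes. Whether reads counted for Timp1 include some from the opposite strand was not tested. Mmp19 overlaps Tmem198b on the opposite strand (3.15 to 6.11 CPM), and its estimated count was fractional in all 27 libraries, which means that reads were shared out between it and other genes.

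Libraries held 41120700 to 75664500 estimated counts. Hepatocyte genes such as Alb, Ttr and Apoa1 were high in all libraries, and genes of pancreatic acinar cells reached 918 summed CPM in ID2_31, 61.8 CPM in 1 ID4 library and 18.4 CPM in 1 ID8 library, against at most 1.13 CPM in any NUL, LAC, ID6 or REG library. Summed markers of cholangiocytes (3.16 to 8.66 CPM), mesothelium (3.34 to 8.68 CPM) and adipose tissue (0.866 to 14.2 CPM) were low in all libraries. Animals whose title number is below 200 were all 3 of ID8, 2 of 3 in ID2 and 2 of 4 in ID4, and none of NUL, LAC, ID6 or REG. The labels do not say what the number stands for, nor at what hour tissue was collected. Nothing in the labels describes litter mates or repeat libraries, so p-values measure the spread between animals as labelled.

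Levels of different genes were compared on TPM, the authors' value that corrects for gene length. Mmp19, an MMP known for cutting basement membrane proteins, was the highest member at a mean of 34.95 TPM over the 27 libraries (25.9 to 41.8). Mmp14, the membrane-bound protease known to activate the MMP2 precursor at the cell surface, followed at 28.8 TPM (21.2 to 45.4). The ranges of these 2 genes overlapped, and both lay above every value of the other 8 members. Timp2, the inhibitor that also carries the MMP2 precursor to MMP14, had a mean of 7.34 TPM (3.54 to 10.3), and Timp3, the inhibitor that binds to the matrix itself, had 3.30 TPM (2.18 to 4.68). Mmp2, a gelatinase, had 1.36 TPM (0.35 to 2.24), Mmp12 0.919 TPM (0.12 to 3.05), Loxl1 0.641 TPM (0.19 to 1.01) and Mmp13 0.510 TPM (0.22 to 1.17), and the ranges of these 4 overlapped. Timp1, the inducible inhibitor that is a usual marker of liver fibrosis, was listed at 0.334 TPM (0 to 0.63) and Lox at 0.0996 TPM (0.03 to 0.28). In counts, Timp1 had 0 to 21 reads per library and Lox 6 to 65, so small differences in either gene were not detectable at this depth.

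**Figure D1:**
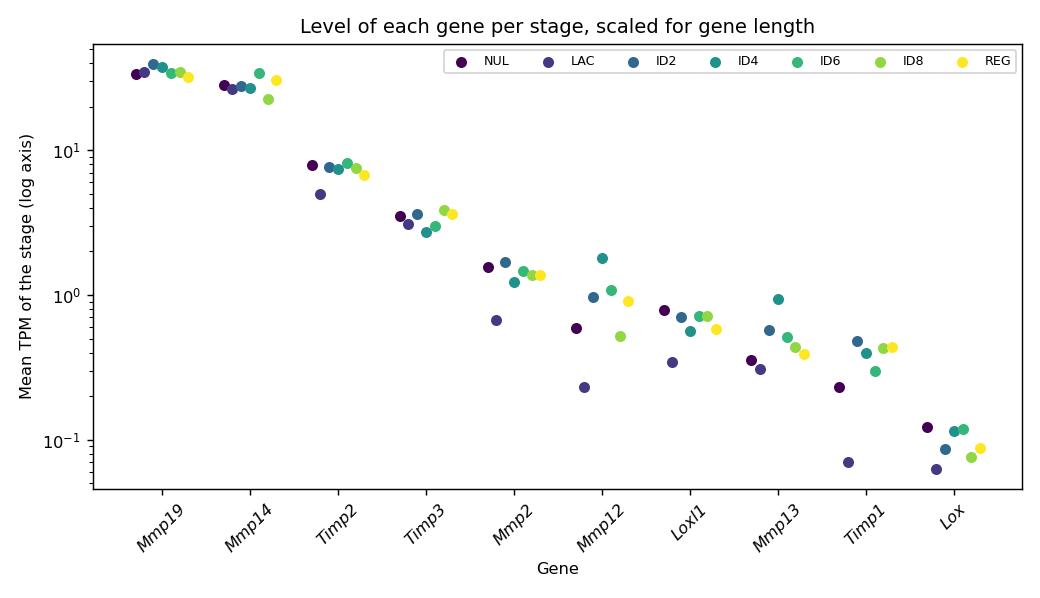
Mean TPM of each of the 10 members in each stage (log axis), 1 point per stage, coloured by stage and with no error shown. Mmp19 and Mmp14 lie highest and Lox lowest, and the LAC point is the lowest of its gene for 7 of the 10 members.

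By the ratio of highest to lowest stage mean, the genes with the highest levels varied least over the cycle. Low counts can widen this ratio, and the LAC mean of Timp1 rests on 6 counts. On TMM-scaled CPM, the scale used for comparisons of 1 gene between stages, the highest stage mean divided by the lowest was 1.31 for Mmp19, 1.33 for Timp3, 1.36 for Mmp14 and 1.52 for Timp2. It was 1.75 for Lox, 2.14 for Loxl1, 2.605 for Mmp2, 3.03 for Mmp13, 7.18 for Timp1 and 8.27 for Mmp12. LAC was the lowest of the 7 stages for 7 of the 10 members, in CPM as in TPM; the other 3 were Mmp14, lowest in ID8, Mmp19, lowest in REG, and Timp3, lowest in ID4. A joint test of any difference among stages (the quasi-likelihood test of edgeR, with p-values adjusted by Benjamini-Hochberg over all genes tested and a call below 0.05) called 5 of the 10 members, against 27% of all genes. These were Mmp12 (adjusted p = 0.00113), Mmp13 (0.00325), Mmp2 (0.00343), Timp2 (0.0218) and Mmp19 (0.0410). Mmp19 lost this call in 18 of 27 fits that left out 1 library, and Timp2 lost it without LAC_213 (0.159) or LAC_200 (0.0836). With an offset for effective gene length Mmp2 (0.0978), Timp2 (0.112) and Mmp19 (0.0697) were not called. With limma on log2(TPM + 1) Mmp2 (0.0707), Timp2 (0.0846) and Mmp19 (0.391) were not called, and on log2(TPM + 0.1) Timp2 (0.0740) and Mmp19 (0.385) were not. Mmp19 also missed the threshold with the title number held (0.1004) and with a score of clock genes held (0.152). The other values were 0.0511 for Timp3, 0.0728 for Loxl1, 0.0852 for Timp1, 0.195 for Mmp14 and 0.858 for Lox.

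**Figure D2:**
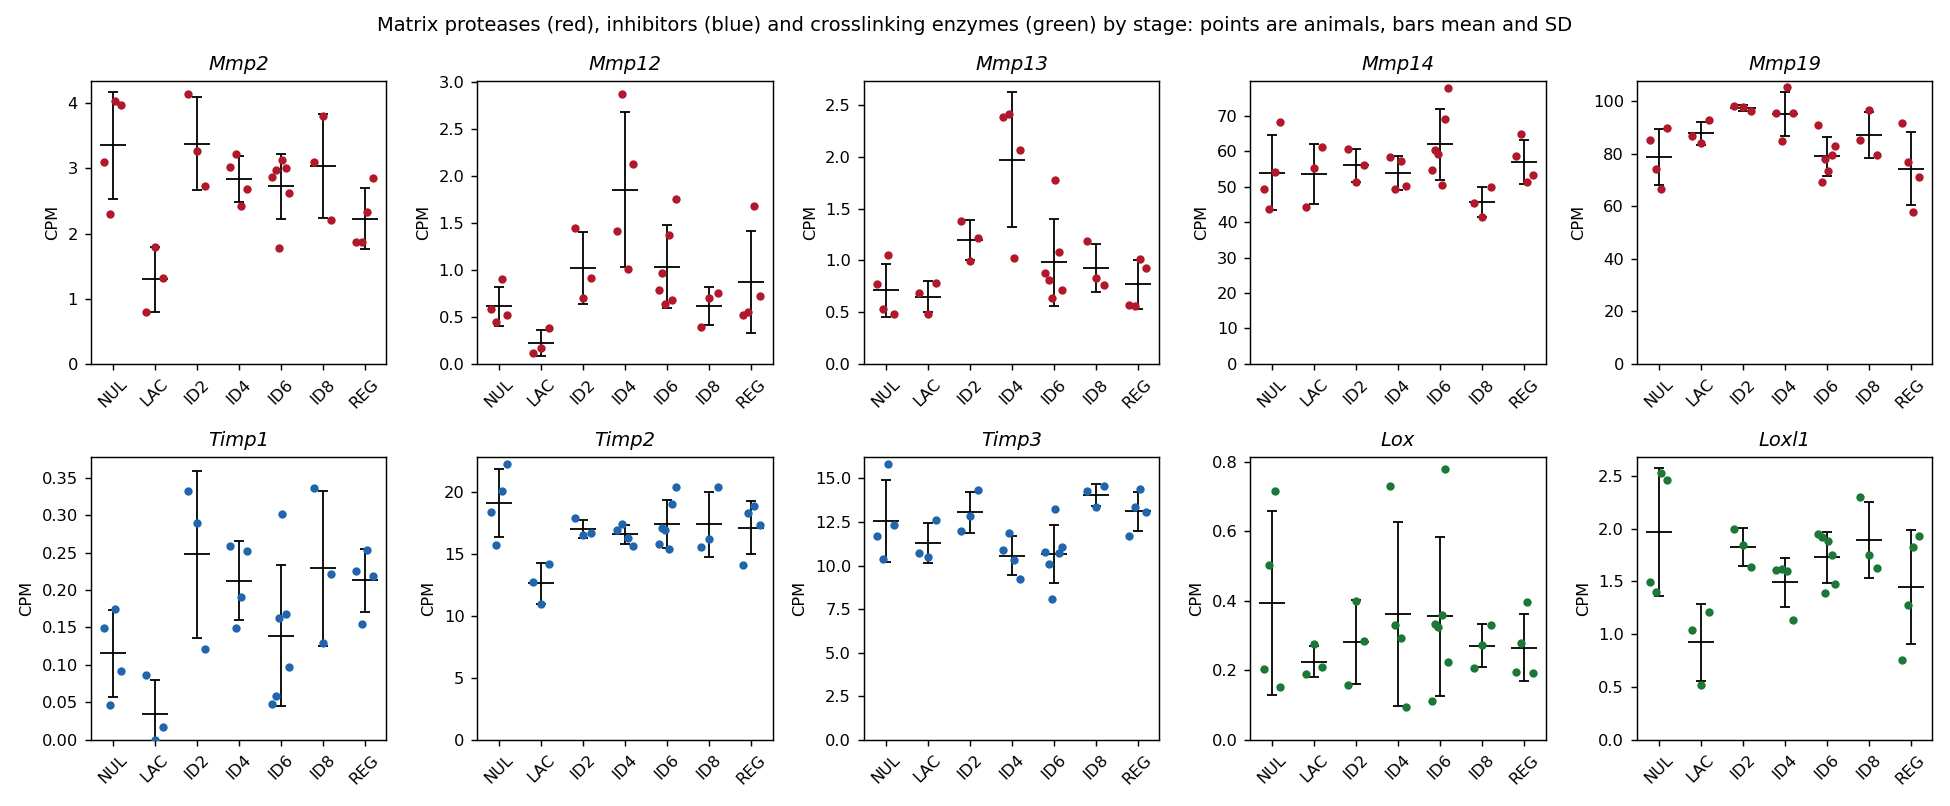
TMM-scaled CPM of each member in each library (points) by stage, with the mean and SD of each stage; each panel has its own axis from 0. Mmp2, Timp2 and Loxl1 are lowest in LAC, and Mmp12 and Mmp13 are highest in ID4.

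In lactating against nulliparous livers, 3 of the 10 members fell and none rose, where 11.2% of all genes were called, 6% lower and 5.19% higher. The 3 were Mmp2, Timp2 and Loxl1: a gelatinase, the inhibitor that escorts its precursor and a collagen-crosslinking enzyme. The members' median log2 fold change was -0.70 and that of all genes -0.01, and 9 of 10 estimates were negative.

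Mmp2 measured 3.10, 2.30, 4.04 and 3.97 CPM in the 4 NUL livers and 0.793, 1.79 and 1.32 CPM in the 3 LAC livers. All LAC values were below all NUL values. The means were 3.35 ± 0.820 (SD, n = 4) and 1.299 ± 0.498 CPM (SD, n = 3), a 2.58-fold fall (log2 fold change -1.37, SE 0.26, adjusted p = 0.000857 by edgeR's quasi-likelihood test). It was called in all 27 fits without 1 library, with an adjusted p of at most 0.0111.

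Timp2 measured 18.4, 15.8, 20.1 and 22.3 CPM in NUL and 12.7, 10.9 and 14.2 CPM in LAC. Again the groups did not overlap, and the spread within each was narrow. The means were 19.1 ± 2.76 CPM (SD, n = 4) and 12.6 ± 1.65 CPM (SD, n = 3), a 1.51-fold fall (log2 fold change -0.60, SE 0.12, edgeR adjusted p = 0.00206).

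Loxl1, the lysyl oxidase-like enzyme known for maintaining elastic fibres, measured 1.49, 1.402, 2.53 and 2.46 CPM in NUL and 1.03, 0.516 and 1.21 CPM in LAC. No LAC liver reached the lowest NUL liver. The fall was 2.14-fold, from 1.97 ± 0.608 (SD, n = 4) to 0.921 ± 0.362 CPM (SD, n = 3), with an edgeR adjusted p of 0.0137. This call was lost without LAC_213 (0.117), without NUL_226 (0.0504) and when only these 2 groups were fitted (0.0732).

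Mmp12 was lower in every LAC liver too, at 0.121, 0.172 and 0.381 CPM against 0.583, 0.442, 0.907 and 0.517 CPM in NUL, but missed the threshold (log2 fold change -1.44, SE 0.50, edgeR adjusted p = 0.0635). These LAC values rest on 7, 10 and 22 counts. The difference passed the threshold with DESeq2 (adjusted p = 0.0286), without LAC_240 (log2 fold change -2.05, 0.0343) and without REG_234 (0.0391). Timp1 had 5, 0 and 1 counts in LAC and 11, 3, 11 and 6 in NUL (log2 fold change -1.69, SE 0.79, edgeR adjusted p = 0.189), and a count of 0 allows for up to 3. Without LAC_200 its log2 fold change was -3.48 and its adjusted p 0.0470. Lox, the lysyl oxidase that acts mainly on fibrillar collagen, had means of 0.224 ± 0.0450 CPM (SD, n = 3) in LAC and 0.394 ± 0.265 CPM in NUL (SD, n = 4), a spread in NUL wider than the difference.

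The 2 most abundant proteases kept close means. Mmp14 averaged 53.6 ± 8.54 CPM in LAC (SD, n = 3) and 54.0 ± 10.6 CPM in NUL (SD, n = 4), with a log2 difference of -0.01 (SE 0.14). Mmp19 averaged 87.9 ± 4.43 CPM in LAC and 78.8 ± 10.5 CPM in NUL, with a log2 difference of 0.16 (SE 0.12). Both groups overlapped for each gene. Mmp13 (0.650 ± 0.153 CPM in LAC, 0.711 ± 0.259 in NUL) and Timp3 (11.3 ± 1.16 and 12.6 ± 2.35) overlapped as well.

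Markers of the cells that are known to make these proteins were also lower in LAC. The summed CPM of 9 stellate cell markers was 244 to 247 in LAC (median 246) and 291 to 346 in NUL (median 335), with 4 of 9 called lower. The sum of 7 portal fibroblast and myofibroblast markers was 10.3 to 16.7 in LAC and 17.9 to 20.6 in NUL, with 3 of 7 lower. Kupffer cell markers summed to 228 to 320 in LAC and 343 to 434 in NUL (4 of 7 lower), and sinusoidal endothelial markers to 233 to 277 and 305 to 351 (2 of 7 lower). Recruited monocyte and macrophage markers summed to 21.9 to 27.5 CPM in LAC and 36.1 to 51.1 CPM in NUL (3 of 8 lower). Every stellate and Kupffer marker was detected in every library, while the portal fibroblast marker Gli1 was at 0 in 4. The sum of 7 hepatocyte markers, most of it Alb, was 183200 to 227400 CPM in LAC and 96780 to 125600 CPM in NUL; of the 7, Alb was called higher (log2 fold change 0.98) and Cyp2e1 lower (-1.49, from 4184 to 1495 CPM). The stellate sum is made mostly of Ecm1, Reln and Rgs5, with medians of 123, 58.1 and 48.7 CPM over all libraries. Per 1000 CPM of stellate markers, a ratio computed after these values were seen, Mmp2 was 3.22 to 7.33 in LAC and 7.90 to 11.7 in NUL, without overlap. Timp2 was 44.8 to 57.8 in LAC and 54.1 to 64.8 in NUL, and Loxl1 was 2.11 to 4.92 and 4.58 to 7.30, both with overlap. The part of these markers in the fall of Mmp2, Timp2 and Loxl1 was not tested.

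Some transcripts of matrix proteins were lower in the same comparison. Of 18 matrix protein genes listed, 6 fell and none rose, where 6% of all genes were called lower. The median log2 fold change of the 18 was -0.54. Among those that fell were Sparc, a collagen-binding protein, from 70.0 to 49.2 CPM, and Dcn, the proteoglycan decorin, from 143 to 99.6 CPM. Of 15 tested crosslinking and collagen-processing enzymes outside the members, 1 fell and none rose. Among 17 adamalysins, proteases with a disintegrin domain, 4 fell, including Adamts1 (10.0 to 6.23 CPM) and Adamts10 (5.58 to 3.26 CPM). Of 10 other metalloproteinases tested, none was called. The plasminogen and cathepsin list had 2 of 11 lower, including the macrophage protease Ctss (32.8 to 22.3 CPM), and Mug1, a broad plasma protease inhibitor, fell from 2463 to 1148 CPM as the 1 call among 5 other inhibitors.

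By day 2 after weaning, 5 of the 10 members had risen above their lactation level: Mmp2, Mmp12, Timp1, Timp2 and Loxl1. Among all genes 16.1% were called in this comparison, 8.48% higher and 7.64% lower. All 10 estimates were positive, with a median log2 fold change of 0.65 against 0.02 for all genes. This comparison, the one of day 4 against LAC and the one of LAC against NUL share the same 3 LAC livers, so a low LAC value enters all of them.

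Mmp2 measured 4.15, 3.27 and 2.73 CPM at day 2, every value above the LAC livers, a 2.605-fold rise (log2 fold change 1.38, SE 0.27, edgeR adjusted p = 0.00102). The call was kept in every alternative run. Its day 2 mean of 3.38 ± 0.717 CPM (SD, n = 3) lay beside the NUL mean of 3.35 CPM.

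Mmp12 measured 1.44, 0.703 and 0.910 CPM at day 2, each above the highest LAC liver at 0.381 CPM. The rise was 4.51-fold (log2 fold change 2.17, SE 0.52, edgeR adjusted p = 0.00572), and on log2(TPM + 1), which compresses genes this low, it missed the threshold with limma (adjusted p = 0.0815). Without LAC_240 the log2 fold change was 2.78.

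Timp1 had 21, 21 and 6 counts at day 2 against 5, 0 and 1 in LAC. The groups did not overlap, but the fitted 6.93-fold rise (log2 fold change 2.79, SE 0.80, edgeR adjusted p = 0.0170) rests on very few LAC reads and on the added prior count. Without LAC_200 the log2 fold change was 4.58, and the call was lost without LAC_213 (0.0951), LAC_240 (0.0705), ID2_224 (0.0618) or ID2_31 (0.0502).

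Timp2 measured 17.9, 16.5 and 16.7 CPM at day 2, a 1.35-fold rise over LAC (log2 fold change 0.43, SE 0.13, edgeR adjusted p = 0.0251). Loxl1 measured 2.00, 1.85 and 1.64 CPM, a 1.99-fold rise (0.99, SE 0.31, adjusted p = 0.0281). In both genes all day 2 livers were above all LAC livers. The Timp2 call was lost without LAC_213 (0.150), LAC_200 (0.0594), ID2_224 (0.0864) or ID2_39 (0.0529), and the Loxl1 call without LAC_213 (0.178), ID2_224 (0.0847) or ID2_31 (0.0665). On log2(TPM + 1) limma called neither (0.0601 and 0.0592), and on log2(TPM + 0.1) it did not call Timp2 (0.0517). Holding the title number as a covariate gave an adjusted p of 0.101 for Timp2 and 0.105 for Loxl1, with log2 fold changes of 0.42 and 0.95. Holding the clock score gave 0.129 and 0.126, with log2 fold changes of 0.39 and 0.91.

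Of the members not called, Mmp13 was higher in all 3 day 2 livers, at 1.38, 0.993 and 1.21 CPM against 0.690, 0.481 and 0.779 CPM in LAC (log2 fold change 0.88, SE 0.38, edgeR adjusted p = 0.117). Mmp19 did not overlap either, at 98.2, 97.8 and 96.3 CPM against 86.7, 84.3 and 92.8 CPM, for a log2 difference of 0.15 and an adjusted p of 0.464. Against NUL rather than LAC, no member was called at day 2 by edgeR, where 3.24% of all genes were; 2 members had an unadjusted p under 0.05, the smallest adjusted p was 0.161 for Mmp19, and DESeq2 called none either. Stellate markers summed to 264 to 290 CPM at day 2, with 2 of 9 higher than in LAC, portal fibroblast and myofibroblast markers to 17.5 to 23.3 CPM (2 of 7 higher) and sinusoidal endothelial markers to 328 to 344 CPM (4 of 7 higher). Kupffer markers summed to 318 to 395 CPM (4 of 7 higher) and recruited monocyte and macrophage markers to 35.6 to 44.7 CPM against 21.9 to 27.5 CPM in LAC (5 of 8 higher). Their part in the rise was not tested.

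**Figure D3:**
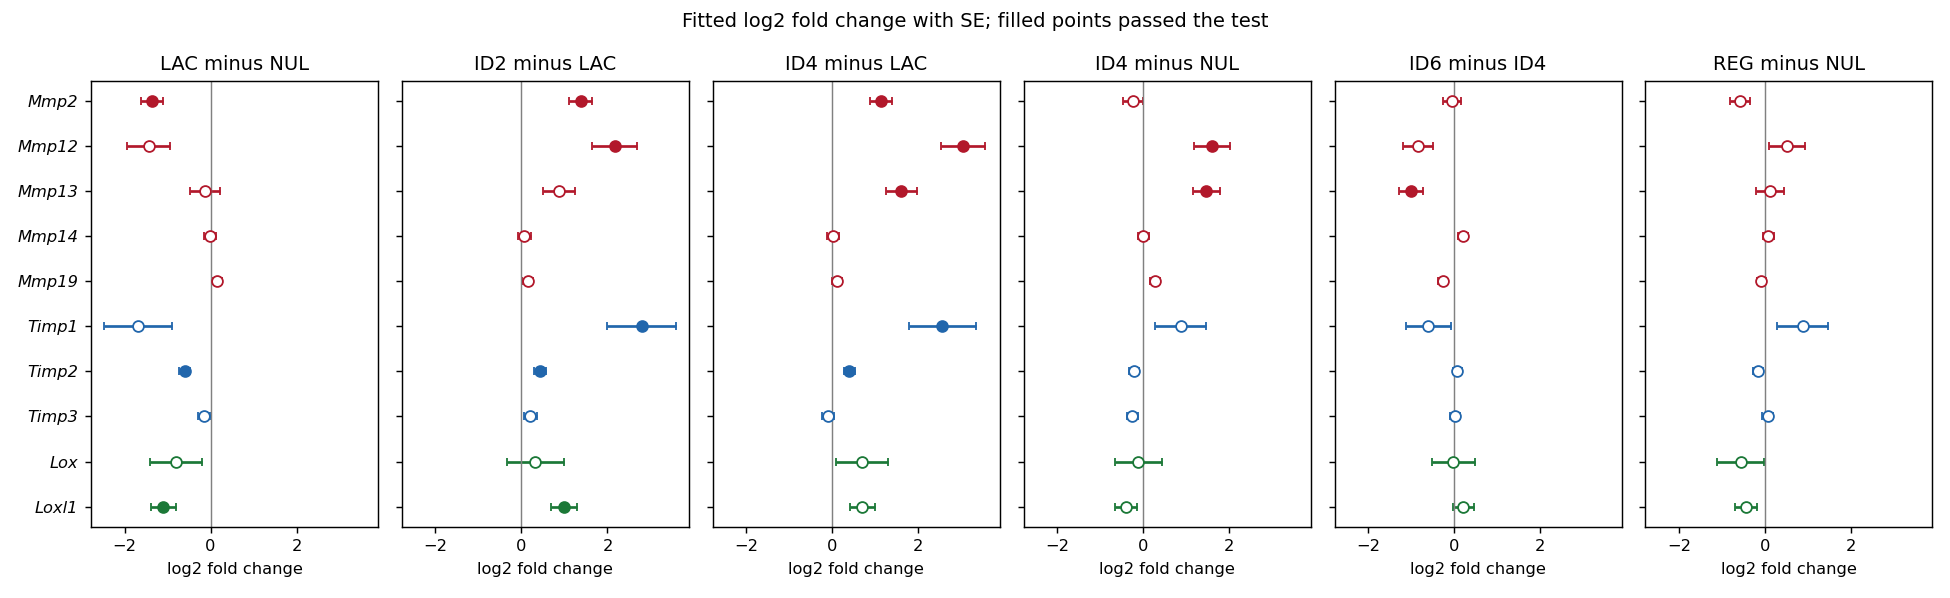
Log2 fold change (± SE) of each member in 6 of the 12 comparisons from the edgeR fit; filled points were called at an adjusted p below 0.05. All called estimates of LAC against NUL are negative, and all called estimates of days 2 and 4 against LAC are positive.

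At day 4 after weaning, Mmp12 and Mmp13, the macrophage elastase and the interstitial collagenase, stood above the nulliparous level. They were 2 of 10 members called, both higher, where 4.25% of all genes were called and 2.64% rose. The other 8 members had log2 fold changes whose adjusted p was above 0.05, and the median over the 10 was -0.06 against -0.02 for all genes.

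Mmp12 measured 1.41, 2.87, 1.01 and 2.13 CPM at day 4 and 0.583, 0.442, 0.907 and 0.517 CPM in NUL. Even the lowest day 4 liver, ID4_211, was above the highest NUL liver. The mean rose 3.03-fold, from 0.612 ± 0.205 to 1.86 ± 0.821 CPM (SD, n = 4 each; log2 fold change 1.60, SE 0.41, edgeR adjusted p = 0.0229). The call was lost without ID4_15 (0.0903), ID4_215 (0.0563), NUL_220 (0.0531), NUL_221 (0.0742) or NUL_227 (0.0690), while the log2 fold change stayed at 1.31 or more in these fits. In a fit that held the title number (below 200 or not) as a covariate, the log2 fold change was 1.64 and the adjusted p 0.0706, and limma on log2(TPM + 0.1) gave 1.38 and 0.0525.

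Mmp13 measured 2.39, 2.41, 1.02 and 2.07 CPM at day 4 and 0.772, 0.533, 1.05 and 0.486 CPM in NUL. Here ID4_211 fell just under the highest NUL liver, and the other 3 were near or above 2.07 CPM. The rise was 2.77-fold, from 0.711 ± 0.259 to 1.97 ± 0.651 CPM (SD, n = 4 each; log2 fold change 1.47, SE 0.32, edgeR adjusted p = 0.00700). It was called in all 27 fits without 1 library, with an adjusted p of at most 0.0337, and it missed the threshold in the fit holding the title number (log2 fold change 1.32, adjusted p = 0.0545).

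Against LAC, day 4 had 5 members higher and none lower, where 22.4% of all genes were called and 11.5% rose. Mmp12 was 8.20-fold higher (log2 fold change 3.04, SE 0.51, edgeR adjusted p = 7.77e-05) and Mmp13 3.03-fold higher (1.60, SE 0.36, adjusted p = 0.00178), and both calls were kept in every alternative run. Without LAC_240 the log2 fold change of Mmp12 was 3.65. Mmp2 was 2.18-fold higher, at 3.02, 3.22, 2.43 and 2.68 CPM (edgeR adjusted p = 0.00198), and was not called with the length offset (0.0646) or on log2(TPM + 1) with limma (0.0986). Timp2, at 17.0, 17.4, 16.3 and 15.7 CPM, was 1.31-fold higher (edgeR adjusted p = 0.0222), a call lost without LAC_213 (0.144), LAC_200 (0.0562) or ID4_15 (0.0528) and with the title number held (log2 fold change 0.38 against 0.39, adjusted p = 0.0607). Timp1, at 17, 9, 13 and 16 counts, had a fitted 5.89-fold rise (edgeR adjusted p = 0.0168), lost without LAC_213 (0.0939) or LAC_240 (0.0787), and its log2 fold change of 2.56 became 4.35 without LAC_200. Loxl1 was no longer past the threshold, at 1.61, 1.62, 1.59 and 1.14 CPM (log2 fold change 0.69, SE 0.29, edgeR adjusted p = 0.0877). Stellate markers summed to 280 to 304 CPM at day 4 (4 of 9 higher than in LAC), portal fibroblast and myofibroblast markers to 15.5 to 20.3 CPM (3 of 7 higher) and sinusoidal endothelial markers to 315 to 374 CPM (4 of 7 higher), and their part in these rises was not tested.

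Kupffer cell markers were high at the same stage. Their summed CPM was 579 to 645 at day 4 (median 599) against 343 to 434 in NUL, with 6 of 7 called higher, and 7 of 7 were higher than in LAC. Recruited monocyte and macrophage markers summed to 32.9 to 42.7 CPM at day 4 and 36.1 to 51.1 CPM in NUL, with 1 of 8 called higher and a median log2 fold change of 0.40. Most of this sum is Spp1, which averaged 34.3 CPM in NUL and 27.3 CPM at day 4. Against LAC 6 of the 8 were higher at day 4, with a median log2 fold change of 1.27. Neutrophil markers summed to 3.51 to 7.17 CPM at day 4, 1.504 to 4.42 CPM in NUL and 1.56 to 2.79 CPM in LAC; of the 5 tested, 3 were higher than in LAC and none was called against NUL, and Ly6g was at 0 in 13 libraries. Per 1000 CPM of Kupffer markers, Mmp12 was 1.74 to 4.46 at day 4 and 1.29 to 2.32 in NUL, and Mmp13 was 1.77 to 3.91 and 1.22 to 2.69, both with overlap. Per 1000 CPM of the recruited markers, a sum made mostly of Spp1, Mmp12 was 30.7 to 67.3 at day 4 and 11.1 to 17.8 in NUL, without overlap. These ratios were computed after the values were seen, and the part of the Kupffer, recruited macrophage and neutrophil markers in the rise of either protease was not tested.

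Their cluster neighbour Mmp27 was the 1 call among 10 other metalloproteinases at day 4 against LAC, at 0.745 ± 0.226 CPM (SD, n = 4) against 0.150 ± 0.132 CPM (SD, n = 3), 2.30 higher on the log2 scale (SE 0.50, edgeR adjusted p = 0.00137). Mmp7, the next of the cluster called in the joint test (adjusted p = 0.0496), had its highest means in ID8 (0.549 ± 0.380 CPM; SD, n = 3) and LAC (0.540 ± 0.358; SD, n = 3) and 0.205 ± 0.140 CPM at day 4 (SD, n = 4). The plasminogen system, whose product plasmin can activate metalloproteinase precursors, and the cathepsins had 7 of 11 genes higher at day 4 than in LAC and none lower, with a median log2 fold change of 0.67. Plg, the plasmin precursor, went from 2623 to 4184 CPM and Ctss from 22.3 to 43.5 CPM. Against NUL, 2 of these 11 were higher, Plg (log2 fold change 0.58) and Ctsb, a lysosomal protease named here because the count is small (0.44).

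Matrix proteins had 6 of 18 higher at day 4 than in LAC and none lower, with Sparc at 67.2 and Dcn at 129 CPM. Of the 15 tested crosslinking and collagen-processing enzymes, 5 were higher and 1 lower: Pcolce2, an enhancer of procollagen cleavage, rose from 1.56 to 3.09 CPM, and P4ha2, a collagen prolyl hydroxylase subunit, fell from 8.07 to 4.12 CPM. At day 2 against LAC, 1 of the 15 was higher and 3 were lower, where 8.48% of all genes rose and 7.64% fell. Bmp1, the procollagen C-proteinase that also processes the lysyl oxidase precursors, was called in the joint test (adjusted p = 0.0120). It averaged 128 ± 6.22 CPM in LAC (SD, n = 3) and 147 ± 17.1 CPM at day 4 (SD, n = 4), which did not pass the threshold (edgeR adjusted p = 0.115), and then fell to 118 ± 2.65 CPM at day 6 (SD, n = 6; edgeR adjusted p = 0.00797). Tgfb1, the cytokine known to induce matrix genes, was 6.25 CPM in LAC and 10.2 CPM at day 4 (log2 fold change 0.70, edgeR adjusted p = 0.000251), the 1 call among 14 AP-1 and TGF-beta genes in that comparison. At day 2 against LAC 2 of the 14 were called, both higher, where 16.1% of all genes were called. These were Tgfb1 and Junb, an AP-1 subunit named here because the count is small. Junb went from 8.33 to 22.2 CPM (log2 fold change 1.41, edgeR adjusted p = 0.0285). Jun, an AP-1 subunit called in the joint test (adjusted p = 0.0374), ranged from 7.32 ± 1.69 CPM in ID8 (SD, n = 3) to 70.0 ± 40.6 CPM in REG (SD, n = 4), with 25.0 ± 30.1 CPM in NUL (SD, n = 4), and was called in none of the 12 comparisons by edgeR (smallest adjusted p 0.241, REG against ID8).

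Between days 4 and 6, Mmp13 fell by 1.002 on the log2 scale (SE 0.28, edgeR adjusted p = 0.0251), the 1 member called where 8.53% of all genes were called, 4.64% lower and 3.89% higher. The 6 day 6 livers measured 0.881, 0.810, 0.636, 1.78, 1.08 and 0.709 CPM. ID6_218 (1.78 CPM) and ID6_230 (1.08 CPM) lay above the lowest day 4 liver, ID4_211, and all 6 lay below the other 3 day 4 livers. The call was lost without any of ID4_13 (0.0938), ID4_15 (0.0822), ID4_215 (0.0623), ID6_209 (0.0593), ID6_232 (0.0565) or ID6_216 (0.0504), with the title number held (log2 fold change -0.86, 0.154) and with the clock score held (-0.91, 0.0821). Mmp12 averaged 1.03 ± 0.443 CPM at day 6 (SD, n = 6), with a log2 difference from day 4 of -0.84 (SE 0.36, edgeR adjusted p = 0.149). Kupffer markers summed to 456 to 735 CPM at day 6 (median 548), a range that covers their day 4 values. No member was called at day 6 against NUL by edgeR, where 1.08% of all genes were (0.682% lower and 0.402% higher); 1 had an unadjusted p under 0.05, and DESeq2 called none.

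**Figure D4:**
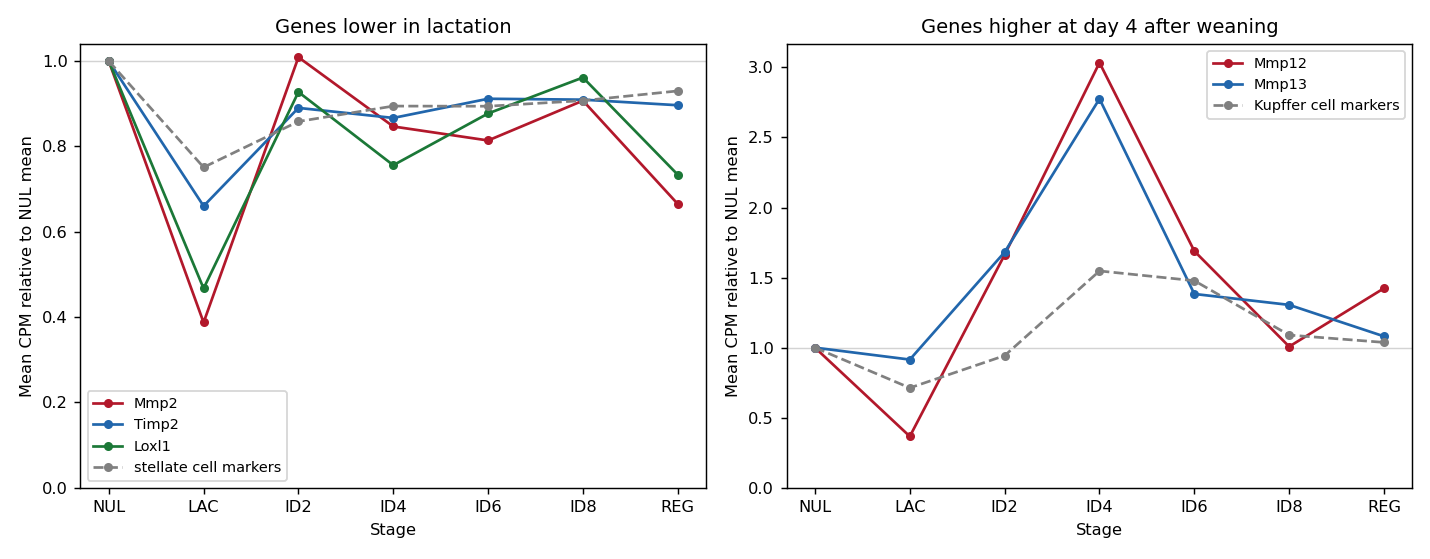
Stage mean CPM divided by the NUL mean (axis from 0, no error shown) over the 7 stages, for Mmp2, Timp2, Loxl1 and the summed stellate cell markers (left) and for Mmp12, Mmp13 and the summed Kupffer cell markers (right). Mmp12 and Mmp13 are highest at day 4, and Mmp2, Timp2 and Loxl1 are lowest in LAC and lie closer to their NUL mean at day 2.

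Between days 6 and 8, Mmp14 and Timp3 had fold changes of opposite sign that missed the threshold. Mmp14 measured 54.6, 60.5, 59.3, 50.4, 69.2 and 78.0 CPM at day 6 and 45.4, 41.5 and 49.9 CPM at day 8, so that all day 8 livers were lower (log2 fold change -0.44, SE 0.13, edgeR adjusted p = 0.0529). Timp3 measured 10.8, 10.1, 8.09, 13.2, 10.7 and 11.1 CPM at day 6 and 14.3, 13.3 and 14.5 CPM at day 8, all higher (log2 fold change 0.40, SE 0.12, edgeR adjusted p = 0.0615). DESeq2 called both, with adjusted p-values of 0.0212 and 0.0393; it gave none for Timp1 and Lox. In this comparison 4.12% of all genes were called, 2.37% higher and 1.75% lower. Kupffer markers summed to 387 to 492 CPM at day 8 against 456 to 735 CPM at day 6, with 5 of 7 called lower, while none of the 9 stellate, 7 portal fibroblast or 7 sinusoidal endothelial markers was called; the part of these cells in the 2 differences was not tested. All ID8 animals and no ID6 animals have title numbers below 200, so that this number and the stage cannot be told apart here. No member was called at day 4 against day 2 by edgeR (1.49% of all genes; 2 members at an unadjusted p under 0.05), and DESeq2 called none.

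At 4 weeks after weaning no member differed from NUL at the threshold by edgeR or by DESeq2, where edgeR called 0.0852% of all genes, 0.0243% higher and 0.0609% lower. Mmp2 had the smallest adjusted p, 0.514, and the 1 unadjusted p under 0.05, at 1.86, 1.87, 2.33 and 2.86 CPM against 3.10, 2.30, 4.04 and 3.97 CPM (log2 fold change -0.59, SE 0.23). The groups overlapped. Loxl1 measured 0.752, 1.28, 1.82 and 1.93 CPM, and Mmp12 measured 0.526, 0.556, 1.68 and 0.725 CPM, each a wider spread than most earlier stages. The members' median log2 fold change was -0.01 and that of all genes 0.00. An unmet threshold does not show that values were alike. Day 8 had no member called against NUL by edgeR either (0.499% of all genes, and 0 members at an unadjusted p under 0.05), and 4 weeks against day 8 had none (0.0487%, of which 0.0304% higher and 0.0183% lower, with 1 member at an unadjusted p under 0.05). DESeq2 called none in both. The 7 related lists had 0 calls between REG and NUL, and the median log2 fold change of the matrix proteins was -0.36.

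The order of the stages differed from gene to gene, also within a role. For the pericellular pair, Mmp2 ran ID2, NUL, ID8, ID4, ID6, REG and LAC from highest to lowest mean CPM, and Mmp14 ran ID6, REG, ID2, NUL, ID4, LAC and ID8. In Mmp2 the first 5 stages lay between 2.73 and 3.38 CPM with SDs of 0.353 to 0.820, so neighbours did not differ beyond their spread, and the step from REG (2.23 ± 0.473 CPM; SD, n = 4) to LAC was the widest. For the macrophage-type proteases, Mmp12 ran ID4, ID6, ID2, REG, ID8, NUL and LAC and Mmp13 ran ID4, ID2, ID6, ID8, REG, NUL and LAC. In both, the ID4 mean stood above the next stage by slightly more than its own SD, and the steps further down were within the SD of a neighbour except the last step of Mmp12, from 0.612 CPM in NUL to 0.225 CPM in LAC. Mmp19 was highest in ID2 (97.5 ± 0.999 CPM; SD, n = 3) and ID4 (95.3 ± 8.33; SD, n = 4) and lowest in REG (74.4 ± 14.0; SD, n = 4).

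Among the inhibitors, Timp1 ran ID2, ID8, REG, ID4, ID6, NUL and LAC, with means of 0.0345 to 0.248 CPM and overlapping neighbours. Timp2 lay between 16.6 and 19.1 CPM in all stages except LAC. Timp3 ran ID8, REG, ID2, NUL, LAC, ID6 and ID4, from 14.1 ± 0.633 (SD, n = 3) to 10.6 ± 1.11 CPM (SD, n = 4), with the ID6 mean of 10.7 ± 1.66 CPM (SD, n = 6) next to the ID4 mean; against NUL its day 4 log2 difference was -0.25 (SE 0.12, edgeR adjusted p = 0.282). Of the other inhibitors, Mug1 was lowest in LAC and highest at day 4 (3244 ± 498 CPM; SD, n = 4), Pzp averaged 6394 ± 854 CPM at day 4 (SD, n = 4) and Tfpi2 38.5 ± 3.08 CPM at day 4 against 53.1 ± 6.72 CPM in LAC (SD, n = 3). The lysyl oxidases both had their highest mean in NUL and their lowest in LAC, and no stage differed from another in Lox beyond its spread.

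Genes whose log2 CPM ran most like a member's over the 27 libraries were taken for the 5 members called in the joint test, as a description; the libraries share stage, strain and depth range, and this was a search over all tested genes. For Mmp2 these were Tsc22d1 (Pearson r = 0.785, Spearman rho = 0.770), Art4 (0.769, 0.617) and Col3a1, the type III collagen chain (0.767, 0.676); without the 2 libraries farthest from the median r was 0.781, 0.525 and 0.672. For Timp2 they were Flna (0.864, 0.742), Plxnd1 (0.836, 0.730) and Islr (0.817, 0.630), with r of 0.730, 0.681 and 0.689 without those 2. For Mmp12 they were N4bp2l1 (0.854, 0.725), Arhgap25 (0.814, 0.710) and Itgam, an integrin chain of myeloid cells (0.810, 0.761), with 0.780, 0.742 and 0.767. For Mmp13 they were Irf2 (0.821, 0.727), Mthfs (0.790, 0.778) and Trim34a (0.768, 0.749), with 0.724, 0.752 and 0.696. For Mmp19 they were Dis3l (0.775, 0.840), Fig4 (0.766, 0.826) and Inf2 (0.759, 0.793), with 0.823, 0.819 and 0.778. No gene appeared in 2 of these lists.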

How the data were processed

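Whole-liver RNA of 27 mice was sequenced, with libraries from Trizol-extracted RNA and the NEBNext Ultra RNA kit, per the labels. The submitters' processing notes name STAR 2.6.1a, RSEM 1.3.1 and mm10 / GRCm38; the annotation release, strand setting and filters are not given in the sources used here. The deposited tables hold RSEM's expected counts (estimated reads per gene, not scaled between libraries) and TPM (length-scaled by the authors, summing to the same total in every library), per the file headers. Gene identifiers were matched to GENCODE M21 (51633 of 51826).

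Expected counts were rounded and fitted in edgeR 4.0.16 (R 4.3.3): filterByExpr by stage, TMM, 1 quasi-likelihood fit of all 27 libraries in 7 groups, 12 comparisons and a joint test, Benjamini-Hochberg adjusted over the 16428 genes tested, two-sided, called at 0.05. The sign of a log2 fold change is the first stage minus the second. CPM is TMM-scaled. TPM was tested with limma 3.58.1 on log2(TPM + 1) and log2(TPM + 0.1). The other alternatives were RLE scaling, DESeq2 1.42.0, no filter, an effective length offset, covariates for title number, sequencing runs (1 or 2 per library) and clock genes, fitting only the groups compared, and leaving out each library. On simulated counts for ID4 against NUL over 16428 genes, 65.7% of 1.5-fold, 83.6% of 2-fold and 95.5% of 4-fold changes were recovered, with 8 false calls. Changes were placed only in genes with a mean above 1 CPM. Timp1, Lox and Mmp12 average less than that over the 27 libraries, so these shares do not cover them. No 2 replicates agreed within sampling noise (smallest chi-square per gene 44.8). DESeq2 left Timp1 without an adjusted p in several comparisons. The floor of 3 for a count of 0 covers counting error only, while SDs and SEs include the spread between animals.

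The members, related lists and markers were chosen with earlier results of these data known. All members are named. Each related list is given by its counts, with up to 3 genes of smallest joint adjusted p named, and for each member called jointly the 3 genes of highest Pearson r. Likeness used log2 CPM with a prior count of 2. Ratios to marker sums were added after the values were seen.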

Additional observations from a re-analysis of the deposited data

Results flagged for a closer look

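Of 40 combinations of member and stage with 4 to 6 livers, 3 held a liver whose distance from the nearest other one passed the 95% limit of Dixon's test for a lone extreme value; chance gives about 1 in 20. Mmp2 measured 1.77 CPM in ID6_216, against 2.63 to 3.13 CPM in the other 5 livers of that stage (gap over range 0.630, limit 0.625). Lox measured 0.780 CPM in ID6_230, against 0.110 to 0.359 CPM in the others (0.629, limit 0.625). Loxl1 measured 1.14 CPM in ID4_215, against 1.59 to 1.62 CPM in the other 3 (0.950, limit 0.829). None of these livers stands apart in more than 1 of the 10 members.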

How the results depend on the processing

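No paired analysis was possible because no title number occurs in more than 1 group. The 21 calls of members, counting each gene in each test, were refitted 771 times in all; 694 refits kept the call, 77 lost it and 0 changed its direction. Of 129 counts of called members under settings other than leaving out a library, 15 moved. The joint test called 8 members with DESeq2, 2 with an offset for effective length and 3 on log2(TPM + 1), against 5. Day 4 against NUL had 1 on log2(TPM + 0.1) and 0 with title number held, against 2. Day 2 against LAC had 2 with log2(TPM + 1) and 3 with the title number or the clock covariate, against 5. Day 6 against day 4 had 0 with log2(TPM + 0.1), the title number or the clock, against 1. Day 8 against day 6 had 2 with DESeq2 and 1 each with log2(TPM + 1), log2(TPM + 0.1) and the clock, against 0.

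Without 1 library, the number called ranged from 3 to 7 in the joint test, 2 to 4 in LAC against NUL, 1 to 2 in day 4 against NUL, 2 to 5 in day 2 against LAC, 3 to 5 in day 4 against LAC, 0 to 2 in day 6 against day 4 and 0 to 2 in day 8 against day 6, and stayed at 0 in the other comparisons. The joint count of 3, the day 4 against LAC count of 3 and the day 2 against LAC count of 2 came without LAC_213; the last also came without ID2_224. The cause was not tested. On log2(TPM + 0.1) the median of all genes shifted by 0.112 for day 6 against day 4 and by -0.111 for day 8 against day 6. Timp1, Lox and, in LAC, Mmp12 are limited by depth, with 0 to 21, 6 to 65 and 7 to 22 counts per library.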
